A study of Mus musculus with 17 samples.

Results

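Cells differentiated towards hepatocytes in culture, called the hepatocyte condition here, were compared with primary hepatocytes across all measured genes. The samples were chosen by their labels, and the 2 groups hold 8 of the 17 single-colour Agilent arrays of a study of adult mouse liver progenitor cells, with 4 arrays each. The hepatocyte condition is labelled differentiated hepatocyte and was obtained in vitro, and the primary hepatocytes came from liver. The offspring used for both groups carried Cre recombinase driven by Foxl1 together with a yellow fluorescent reporter at the Rosa26 locus, and were 6 to 10 weeks old. Foxl1 is a forkhead transcription factor gene, so that the reporter marks cells that have used it and their descendants. The culture medium, its duration and the number of animals or cultures behind the arrays are not given in the labels used here, so p-values measure the spread between arrays, which may be partly technical.

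Hepatocytes are the main cell type of the liver. They secrete most plasma proteins, turn ammonia into urea, release and store glucose, make bile acids, and oxidise and conjugate drugs with cytochromes P450 and transferases. Their identity is kept by a network of transcription factors that includes HNF4A, C/EBP alpha and FOXA proteins, and it is known to weaken when hepatocytes are cultured. The cells of bile ducts, the cholangiocytes, derive from the same fetal precursors and are marked by the keratins KRT7 and KRT19 and the factor SOX9, which adult progenitor cells also carry.

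Levels are log2 intensities set against the 75th percentile of each array, so that 0 is that percentile, and the brightest probe stands for its gene. A single limma model of all 17 arrays was used, and genes whose adjusted p (Benjamini-Hochberg, 25973 genes) was below 0.05 are said to have passed. Differences are log2 values of the hepatocyte condition minus primary hepatocytes with their standard errors (n = 4 and 4), and levels of a group are means with SD. Array numbers are replicate numbers from the labels and pair nothing between the groups. The 75th percentile of intensity itself was 2021 ± 132 on arrays of the hepatocyte condition and 801 ± 189 on those of primary hepatocytes. The dimmest probe well above background lay at -7.87 to -6.99 in the hepatocyte condition and at -6.66 to -5.75 in primary hepatocytes, so low levels were bounded earlier in the primary cells. A level under the value of its own array was not well above background, and the size of a difference that rests on it is uncertain. Arrays correlated across genes at a mean r of 0.965 within the hepatocyte condition and 0.979 within primary hepatocytes. Between the groups the mean r was 0.811, and by array of the condition it was 0.828, 0.793, 0.832 and 0.790.

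In the hepatocyte condition 6746 genes were higher (26.0% of those tested) and 8752 were lower (33.7%) than in primary hepatocytes, so that 59.7% passed. At least 2-fold changes were seen in 4759 and 7134 of them, and changes of at least 16-fold in 1113 and 1087. Higher genes that were well above background on all 4 condition arrays made up 25.6% of those tested. Lower genes that were well above background on all 4 primary arrays made up 27.6%. The other lower calls numbered 1573, and 136 of these genes were below background in both groups. The other higher calls numbered 109. The levels of the groups did not overlap for 56.4% of genes. The median difference over all genes was -0.33, against -0.15 with scaling to the array median and -0.01 with quantile normalization, and list medians below are read against -0.33. Counts of list members that passed are likewise read beside 26.0% higher and 33.7% lower. The 95% interval of the difference lay between -1 and 1 for 4811 genes (18.5%), some of which passed. In the authors' deposited table, with its sign turned to condition over primary, 99.5% of the 15440 genes called here and listed there had the same direction. On the 3 slides that held 1 array of each group, at least 99.4% of the called genes kept their direction within the slide, although these arrays are among those that made the calls.

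**Figure D1:**
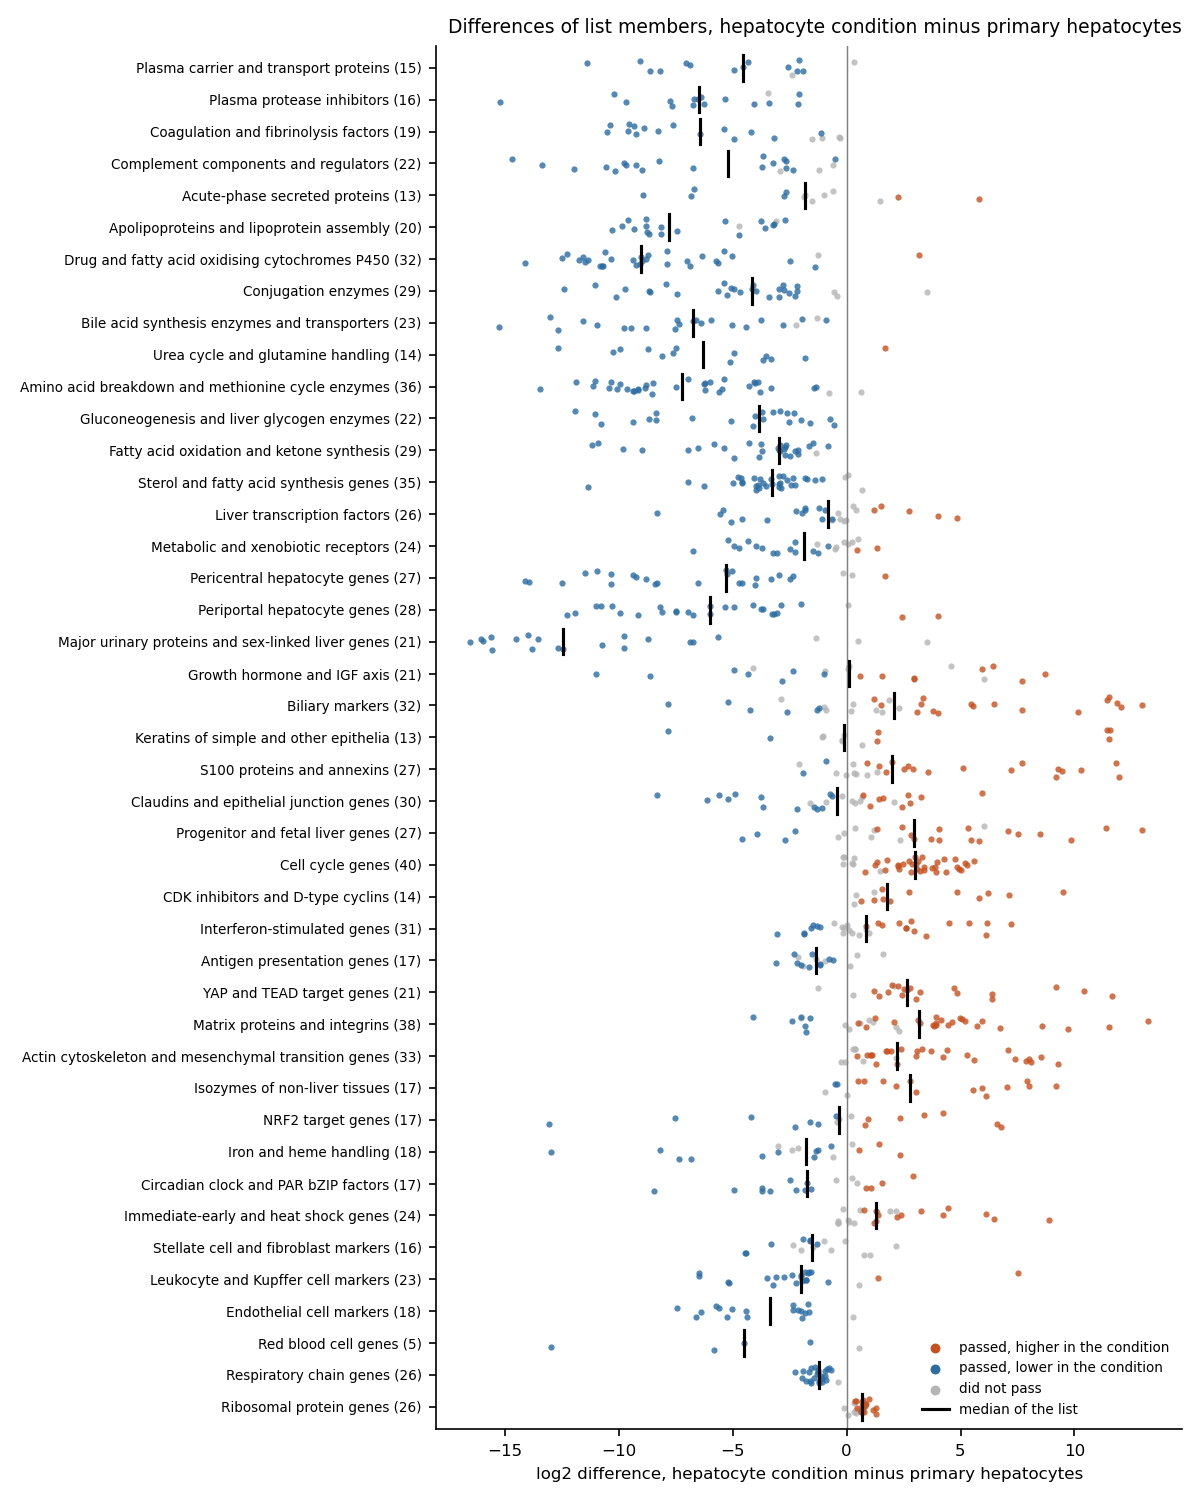
Each point is a gene, placed by its log2 difference, hepatocyte condition minus primary hepatocytes, in one of 43 gene lists (number tested in brackets). Orange points passed as higher in the condition, blue as lower, grey did not pass, and black bars mark list medians, which run from -12.47 for major urinary proteins to 3.19 for matrix proteins.

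The 4 genes used as guides to this comparison were far apart. Cyp1a2, a cytochrome P450 that oxidises caffeine and arylamines in hepatocytes, had levels of -6.68, -9.82, -7.27 and -9.57 in the hepatocyte condition, against 3.56, 4.82, 4.16 and 4.17 in primary hepatocytes. It was well above background on 2 of the 4 condition arrays, and it fell by 12.51 ± 0.95 (adjusted p = 6.5e-08). Ugt2b1, a glucuronosyltransferase that attaches sugar acid to drugs and steroids, was -7.80, -6.70, -7.60 and -8.97 in the condition and 4.24, 4.74, 4.90 and 4.77 in primary hepatocytes, and fell by 12.43 ± 0.39. On condition arrays 1 and 4 it was not well above background, and its difference was as small as -8.60 under alternative processing. S100a6, a calcium-binding protein of spreading and dividing cells, was 7.38, 7.49, 7.59 and 7.66 in the condition, against -3.92, -4.04, -4.66 and -4.59 in primary hepatocytes. It rose by 11.83 ± 0.18 (adjusted p = 5.5e-15), or 3642-fold, which was the largest increase among genes above background on all 8 arrays. Krt19, the ductal keratin, was 4.36, 5.16, 3.79 and 4.66 in the condition and -5.84, -7.11, -8.52 and -6.60 in primary hepatocytes, of which 1 array was above background, and rose by 11.51 ± 0.50. For each of these genes all condition arrays lay on the same side of all primary arrays.

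Foxl1 itself, the gene whose Cre marks the lineage, was 0.73, 1.64, -1.99 and 1.46 in the hepatocyte condition, and not above background on any array of primary hepatocytes. It was at least 97.0-fold higher in the condition (adjusted p = 7e-05). The label of the primary cells was borne by their markers: all 13 hepatocyte markers examined were well above background on all 4 primary arrays, with Alb, the serum albumin gene, at 9.75, 9.46, 10.04 and 10.31.

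Hepatocyte functions were lower in the condition almost throughout. Of 323 genes in 14 lists of secreted proteins and metabolic enzymes, 289 fell (89.5%, against 33.7% of all genes), 4 rose and 30 did not pass, and their median difference was -5.03. Only 5 of the 323 had no probe above background on any condition array. A gene above background on a single array is left out of that count, so it does not show detection across the condition. On the 3 shared slides the medians were -5.81, -6.69 and -3.32, and all 289 were below 0 on each. These genes also varied more between arrays in culture: their median SD was 1.18 in the condition and 0.25 in primary hepatocytes, and the SD was larger in the condition for 86.1% of them, against 52.3% of all genes. Condition arrays 1 and 3 had higher list means than arrays 2 and 4 in each of the 14 lists. Of the 323 genes, 22, 11, 23 and 8 on condition arrays 1 to 4 reached the lowest level of primary hepatocytes.

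**Figure D2:**
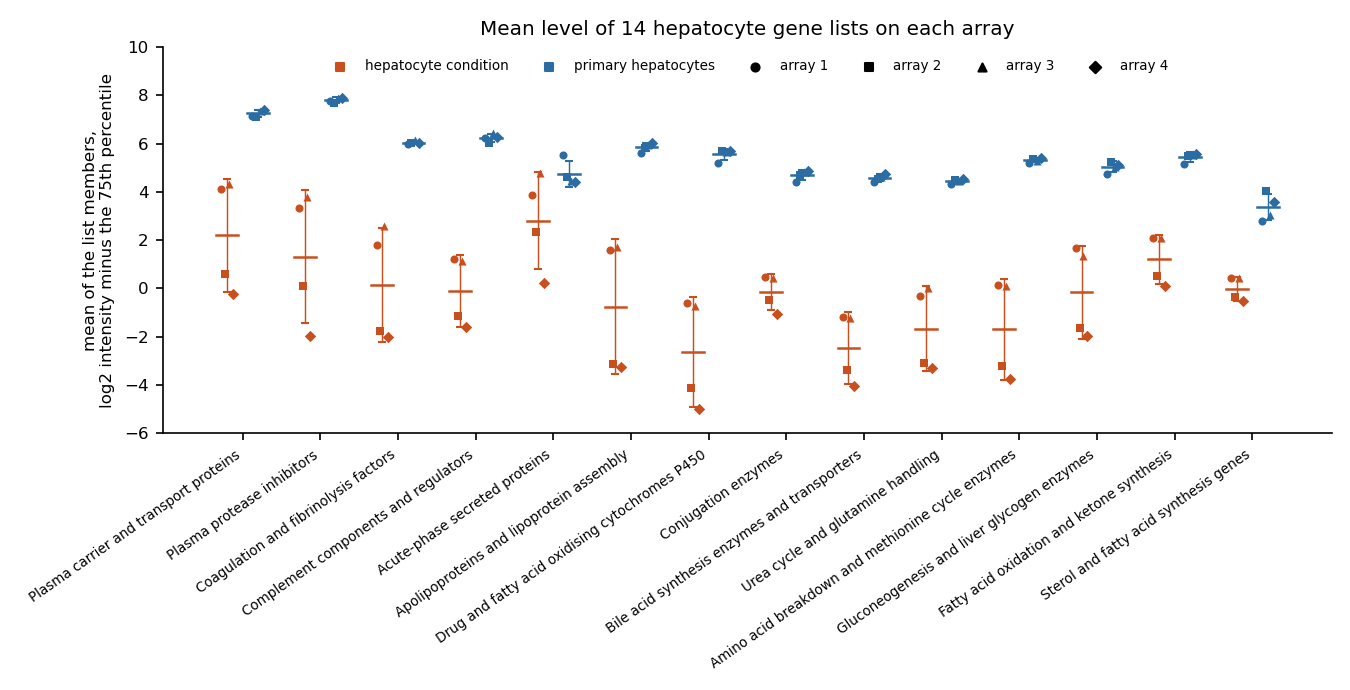
The mean level of the tested genes of 14 hepatocyte lists is shown for each array, with condition arrays in orange on the left and primary arrays in blue on the right of each list, and bars for the group mean and SD. All condition means lie below all primary means except in the list of acute-phase proteins, where condition array 3 reached 4.79 and primary arrays ranged from 4.41 to 5.53.

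Among the secreted proteins, 13 of 15 plasma carriers fell (median -4.54), and 7 with quantile normalization. Alb was 7.62, -4.76, 7.58 and -3.65 in the condition, and its fall of 8.19 ± 3.24 (adjusted p = 0.0416) rested on arrays 2 and 4. The call was lost when either of these was left out (adjusted p = 0.132 and 0.126), and also when any 1 primary array was left out (0.0679 to 0.0757) or with quantile normalization (-6.89, 0.0739). Serpina6, the carrier of corticosteroids, fell by 11.40 ± 0.86, with levels of -3.64, -5.40, -4.39 and -9.21 in the condition against 5.24, 6.07, 5.78 and 5.89 in primary hepatocytes. Afm, the albumin relative afamin that carries vitamin E and Wnt proteins, fell by 9.07 ± 1.89, and Ttr, the thyroid hormone carrier transthyretin, by 4.34 ± 1.67. Ttr was 6.45, 4.32, 6.13 and 1.97 in the condition and 8.82, 8.95, 9.09 and 9.34 in primary hepatocytes. Its call (adjusted p = 0.0369) was lost without condition array 2 or 4 (0.0713 and 0.114) or without any 1 primary array (0.061 to 0.07), and with quantile normalization (-3.24, 0.102). Hpx, the heme carrier hemopexin, did not pass (-2.42 ± 1.21, adjusted p = 0.0977), and Serpina7, which binds thyroid hormone, had overlapping levels (0.33 ± 0.89).

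Protease inhibitors fell in 15 of 16 cases (median -6.46). Mug1, a broad inhibitor of the macroglobulin family that is specific to rodent plasma, fell by 15.24 ± 0.79, and was -5.35, -7.44, -4.38 and -8.97 in the condition against 8.53, 8.50, 8.82 and 8.97 in primary hepatocytes. Its probe may also read the near copy Mug2. Serpinc1, antithrombin, was 3.09, -5.34, 4.24 and -6.19 in the condition and 9.0, 8.93, 9.26 and 9.48 in primary hepatocytes, and fell by 10.22 ± 1.83. Itih3, a chain of the inhibitors that stabilise the hyaluronan matrix, overlapped between the groups and did not pass (-3.45 ± 1.51).

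Among clotting and fibrinolysis factors 15 of 19 fell (median -6.42). Hrg, a histidine-rich glycoprotein that binds heparin and plasminogen, fell by 10.54 ± 0.92, and Plg, plasminogen itself, fell by 10.41 ± 2.18. F12 and F13b, the contact factor and a subunit of the fibrin cross-linker, fell (-9.58 ± 1.76 and -9.55 ± 1.28). The fibrinogen chains behaved otherwise. Fgb had levels of 8.47, 8.42, 8.69 and 8.18 in the condition, against 8.89, 8.61, 8.99 and 8.62 in primary hepatocytes, and the difference of -0.34 ± 1.37 did not pass (0.71 with quantile normalization). Fgg was 7.94, 7.20, 8.16 and 6.90 in the condition and 9.07, 8.69, 9.21 and 9.24 in primary hepatocytes, a difference of -1.51 ± 1.60 without overlap. The standard errors of these chains are set in part by the undifferentiated cells, where Fgb ranged from -4.35 to 4.24. In a fit of the 8 compared arrays alone Fgg passed as lower (adjusted p = 0.00352), as did Habp2, a protease that activates clotting factors (-1.07, adjusted p = 0.0042), and Fgb did not (0.122).

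Complement genes fell in 19 of 22 cases (median -5.22). C8a, a subunit of the membrane attack complex, was not above background on any condition array and was 5.95, 5.37, 5.81 and 5.38 in primary hepatocytes, at least 8605-fold lower in the condition (adjusted p = 5.4e-15). Mbl2, a mannose-binding lectin that starts the lectin pathway, fell by 13.39 ± 1.52, and C8b by 11.96 ± 1.26. Hc, complement component C5, was -4.10, -5.84, -3.58 and -5.41 in the condition against 5.65, 4.29, 6.80 and 6.54 in primary hepatocytes, and fell by 10.55 ± 0.59. C3, the component on which all complement pathways converge, was 8.28, 8.27, 8.41 and 8.43 in the condition and 9.49, 9.24, 9.73 and 9.80 in primary hepatocytes. Its difference of -1.22 ± 0.69 did not pass, but in the fit of the 8 compared arrays it did (adjusted p = 0.000438), and with quantile normalization it was 0.15.

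Of 13 acute-phase proteins, which hepatocytes secrete in inflammation, 2 rose and 5 fell, beside 26.0% and 33.7% of all genes. The other 6 did not pass, and the median of the list was -1.83. The median was -0.73 without condition array 4, -0.84 without primary array 1 and -1.06 with quantile normalization, and 8 fell in the fit of 8 arrays. Lcn2, lipocalin 2, which withholds iron from bacteria, was 7.81, 6.87, 7.82 and 5.59 in the condition against 3.24, 1.14, 0.27 and 0.17 in primary hepatocytes, and rose by 5.82 ± 1.12 (adjusted p = 0.00048). Lbp, which presents bacterial lipopolysaccharide, rose by 2.26 ± 0.70. Hp, haptoglobin, was 7.79, 6.68, 8.43 and 6.71 in the condition and 9.32, 8.65, 9.39 and 9.55 in primary hepatocytes (-1.83 ± 1.13, adjusted p = 0.178, or 0.00711 in the fit of 8 arrays). Lrg1, a secreted leucine-rich glycoprotein, differed by -1.01 ± 0.75 (adjusted p = 0.263, or 0.0469 in that fit). Saa4, Hamp and Orm2, a constitutive amyloid protein, the iron hormone hepcidin and an acid glycoprotein, fell (-8.95 ± 1.64, -6.85 ± 1.28 and -6.68 ± 1.64). Orm2 has near-identical relatives that its probe may also read.

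Of 20 apolipoprotein and lipoprotein genes 18 fell (median -7.81). Apom, which carries sphingosine 1-phosphate, fell by 9.85 ± 1.05, and Apoc3, which delays the clearance of triglyceride, by 9.35 ± 2.05. Lipc, hepatic lipase, was not above background on any condition array and was at least 440-fold lower. Apoa1, the main protein of HDL, was 5.12, -1.18, 5.50 and 1.77 in the condition against 7.23, 7.41, 7.70 and 7.73 in primary hepatocytes. That difference of -4.71 ± 2.41 did not pass (adjusted p = 0.106, or 0.0187 in the fit of 8 arrays). Apoc2, the activator of lipoprotein lipase, was 6.23, 0.51, 6.29 and -1.11 in the condition and 5.90, 6.03, 6.28 and 6.16 in primary hepatocytes, so that condition arrays 1 and 3 lay within or above the primary range and arrays 2 and 4 well below it.

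C/EBP factors drive transcription of many of these genes in liver, and their promoters were searched for the C/EBP letters TTGCNNAA in RefSeq sequence (GRCm38.p6, 250 bases before to 50 after the start, 1 promoter a gene, both strands). The letters were present in 57 of 252 promoters of the hepatocyte genes (22.6%), against 10.8% of all 27025 promoters. The AP-1 letters TGANTCA were in 9.52%, against 7.93% of all, the HNF4 letters (CAAAG, then TCCA) in 1.19%, against 0.477%, and the CRE letters (TGAC, then GTCA) in 1.19%, against 1.88%. Among the hepatocyte genes that passed as lower the C/EBP letters were in 46 of 224 promoters (20.5%), a smaller share than in the whole set. Here and for the promoters printed further on, a match of letters describes the sequence and does not show that a factor binds there.

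Drug metabolism was among the functions furthest from primary hepatocytes. Of 32 cytochromes P450, 30 fell and 1 rose (median -9.02, or -8.89 with genes below background at their bounds). Cyp2c50 and Cyp2f2 fell (-14.15 ± 1.17 and -12.27 ± 1.82), and Cyp4f15, a fatty acid hydroxylase, by 11.76 ± 0.78. The Cyp2c50 probe may also read its close paralogs. Cyp2e1, which oxidises ethanol and acetaminophen, was 2.05, -4.12, -0.71 and -5.44 in the condition, against 9.18, 9.22, 9.66 and 9.61 in primary hepatocytes (-11.47 ± 1.16). Cyp3a11, the main drug-oxidising form of mouse liver, fell by 8.79 ± 1.38, with levels of 2.68, -5.43, -0.33 and -5.76 in the condition. Cyp4b1, a form better known from lung and kidney, rose by 3.18 ± 0.82 and was 1.91, 2.83, 0.17 and 0.80 in the condition against -2.29, -1.44, -1.64 and -1.64 in primary hepatocytes. Cyp1a1, which hydrocarbons induce, had overlapping levels (-1.26 ± 1.53).

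Conjugation enzymes fell in 26 of 29 cases (median -4.16). Ugt3a2, Ugt2a3 and Ugt2b5, further glycosyltransferases, fell (-11.07 ± 0.69, -10.12 ± 0.68 and -9.72 ± 0.90), although probes of this family may read more than 1 member. The sulfotransferases Sult1a1 and Sult1d1 overlapped between the groups, with differences of -0.41 ± 0.79 and -0.54 ± 1.54. Sult1a1 was 4.81, 6.15, 5.50 and 4.35 in the condition and 5.23, 5.69, 5.68 and 5.86 in primary hepatocytes. The 95% interval of neither lay within 2-fold, so the data do not show that they were alike.

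Bile acid genes fell in 21 of 23 cases (median -6.73). Akr1c6, a steroid and bile acid dehydrogenase, fell by 15.25 ± 0.46, and may share its probe with other Akr1c genes. Slco1b2, which takes bile acids and drugs up from blood, fell by 13.04 ± 1.13, with all 4 condition arrays at or below -1.83 against 7.38 to 8.24 in primary hepatocytes. Cyp7b1, of the alternative synthesis pathway, fell by 12.69 ± 1.23, and Cyp8b1, which makes cholic acid, was not above background in the condition and was at least 1597-fold lower. Nr1h4, the bile acid receptor FXR, was lower without overlap, with 4.09, 3.08, 3.59 and 2.96 in the condition against 4.47, 4.88, 4.66 and 4.93. That difference of -1.31 ± 0.66 did not pass (adjusted p = 0.1, or 0.00382 in the fit of 8 arrays).

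In nitrogen metabolism 13 of 14 urea cycle and glutamine genes fell and 1 rose (median -6.31). Car5a, the mitochondrial carbonic anhydrase that feeds bicarbonate to the cycle, fell by 12.67 ± 0.44. Otc and Arg1, which make citrulline and release urea, fell (-10.27 ± 1.53 and -9.96 ± 1.84). Arg1 was -0.55, -7.23, 2.83 and -7.61 in the condition against 6.52, 6.82, 6.82 and 7.11 in primary hepatocytes. Cps1, the enzyme of the first step, fell by 8.12 ± 1.71. Glul, glutamine synthetase, which in liver is confined to the hepatocytes around the central vein, was the one that rose (1.68 ± 0.39, adjusted p = 0.0019). It was 4.47, 5.05, 4.59 and 5.16 in the condition and 3.44, 2.82, 3.52 and 2.75 in primary hepatocytes.

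Amino acid breakdown showed the same direction, with 34 of 36 genes lower (median -7.24). Dmgdh, of choline breakdown, fell by 13.47 ± 0.66, and Agxt, which detoxifies glyoxylate, by 11.89 ± 0.78. Tdo2 and Hpd, early enzymes of tryptophan and tyrosine breakdown, fell (-11.14 ± 1.45 and -11.05 ± 1.68). Tat, the first enzyme of tyrosine breakdown, was -2.68, -4.6, -2.23 and -4.75 in the condition against 5.11, 6.04, 5.80 and 5.45 in primary hepatocytes. Gldc, of glycine cleavage, overlapped between the groups (-0.76 ± 0.74), and Sdsl, a serine dehydratase relative, was 2.64, 3.18, 3.17 and 2.63 in the condition and 2.50, 1.96, 2.23 and 2.44 in primary hepatocytes (0.62 ± 0.29, adjusted p = 0.0809).

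All 22 genes of gluconeogenesis and liver glycogen fell (median -3.86). Fbp1 and Pck1, which commit carbon to glucose, fell (-11.93 ± 1.76 and -10.81 ± 1.91), and Gys2, liver glycogen synthase, fell by 11.05 ± 1.21. Fbp1 was 0.97, -7.25, 0.40 and -8.55 in the condition, against 8.12, 8.14, 8.32 and 8.71 in primary hepatocytes. Many reactions of sugar and amino acid metabolism have a liver enzyme and a second enzyme used in most other tissues, and 9 such pairs were compared. The liver form fell in 9 of 9 pairs, and in 6 of them the other form rose.

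Pyruvate kinase showed this exchange, with Pkm higher by 9.17 ± 0.21 and Pklr lower by 2.63 ± 0.44. Pkm was 5.35, 5.34, 5.17 and 5.53 in the condition and -4.04, -3.61, -3.54 and -4.11 in primary hepatocytes. Glycogen phosphorylase, glycogen synthase and the glucose transporter followed, with Pygb, Gys1 and Slc2a1 higher by 5.54 ± 0.34, 3.05 ± 0.25 and 2.18 ± 0.46. Their liver counterparts Pygl, Gys2 and Slc2a2 fell (-8.36 ± 1.1, -11.05 ± 1.21 and -6.79 ± 1.1). Mat2a rose by 0.75 ± 0.14 while Mat1a, which makes S-adenosylmethionine in liver, fell by 10.34 ± 1.55. The log2 ratio of the other form to the liver form was higher in the condition in 8 of 9 pairs by an exact two-sided permutation test over the 8 arrays (p = 0.0286, the smallest that 70 arrangements allow, adjusted p = 0.0322). The liver form had already passed as lower in all 9 pairs, and the ratio rises where it alone falls. The test therefore does not show a rise of the other form. The pair of carnitine palmitoyltransferases, Cpt1b and Cpt1a, was the exception: both fell, by 1.24 ± 0.22 and 1.64 ± 0.27 (p = 0.286, exact permutation test). Fabp5 rose by 1.5 ± 0.59 beside the fall of Fabp1, and Fbp2 and Pfkfb3 did not pass by themselves. The call of Fabp5 was lost without condition array 1 or 3 or primary array 2, 3 or 4 (adjusted p of 0.0567 to 0.116) and with slide as a fixed block (0.0988).

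**Figure D3:**
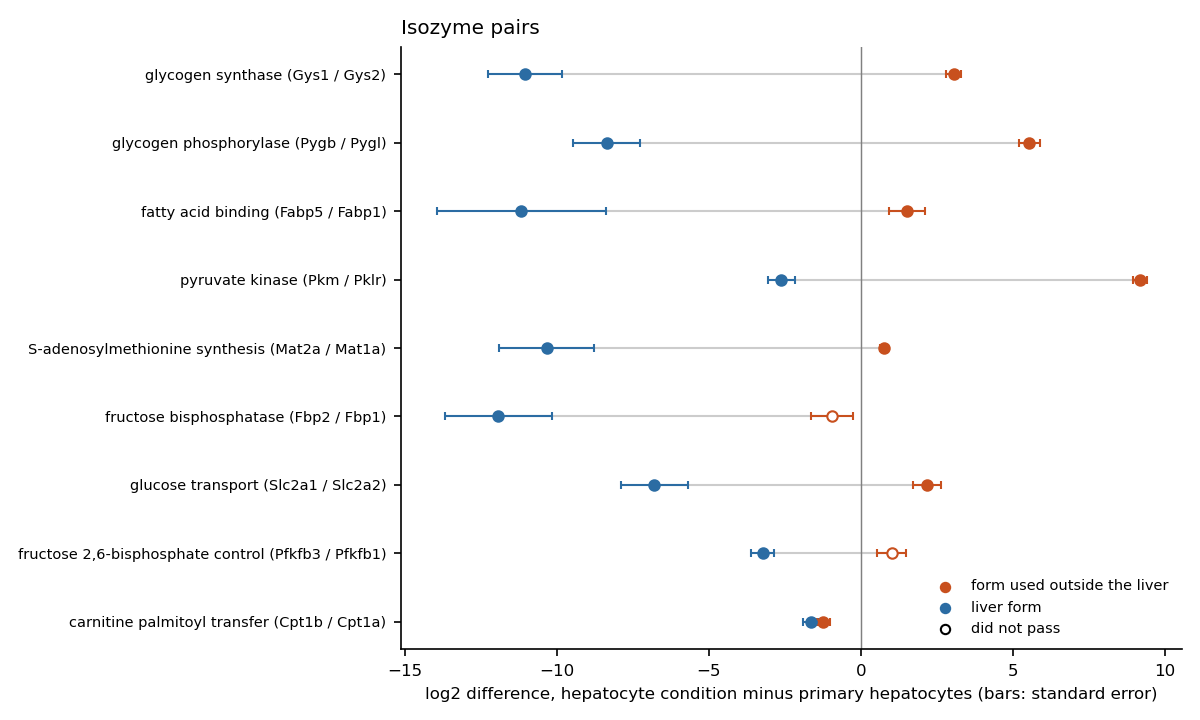
For each of 9 reactions the log2 difference, hepatocyte condition minus primary hepatocytes, is shown for the form used outside the liver (orange, named first) and for the liver form (blue), with standard errors. All liver forms lie left of 0 and 6 of the other forms lie right of it with a filled symbol, which marks genes that passed.

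Fat metabolism was lower on both sides. Of 29 genes of fatty acid oxidation and ketone synthesis 28 fell (median -2.99), among them Fabp1, the fatty acid binding protein of liver (-11.17 ± 2.78), Slc27a2, which activates very long fatty acids (-10.92 ± 1.83), and Bdh1, the last step of ketone synthesis (-9.83 ± 1.33). Of 35 sterol and fatty acid synthesis genes 32 fell (median -3.26). Thrsp, a regulator of fat synthesis that thyroid hormone induces, fell by 11.37 ± 1.49, and Acacb, which makes the malonyl-CoA that holds back oxidation, by 6.96 ± 0.94. Insig1, the sterol sensor of the endoplasmic reticulum, was -3.34, -4.89, -3.22 and -4.51 in the condition against 1.94, 2.75, 2.38 and 2.13 in primary hepatocytes, and Scd1, the stearoyl-CoA desaturase, fell by 5.0 ± 0.51. Srebf2, the transcription factor of sterol synthesis, stood at -1.23, -1.41, -1.32 and -1.27 in the condition and -1.30, -0.93, -1.41 and -1.24 in primary hepatocytes. Its 95% interval was -0.55 to 0.38, and it was one of 3 among the 323 hepatocyte genes with an interval within 2-fold, beside Pnpla3 (-0.70 to 0.83) and Clu (-0.79 to -0.21). Clu passed as lower, but not with median scaling (adjusted p = 0.213), and was higher by 0.46 with quantile normalization. Me1, malic enzyme, was 4.70, 4.85, 4.6 and 4.81 in the condition and overlapped the primary range of 3.09 to 4.98.

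**Figure D4:**
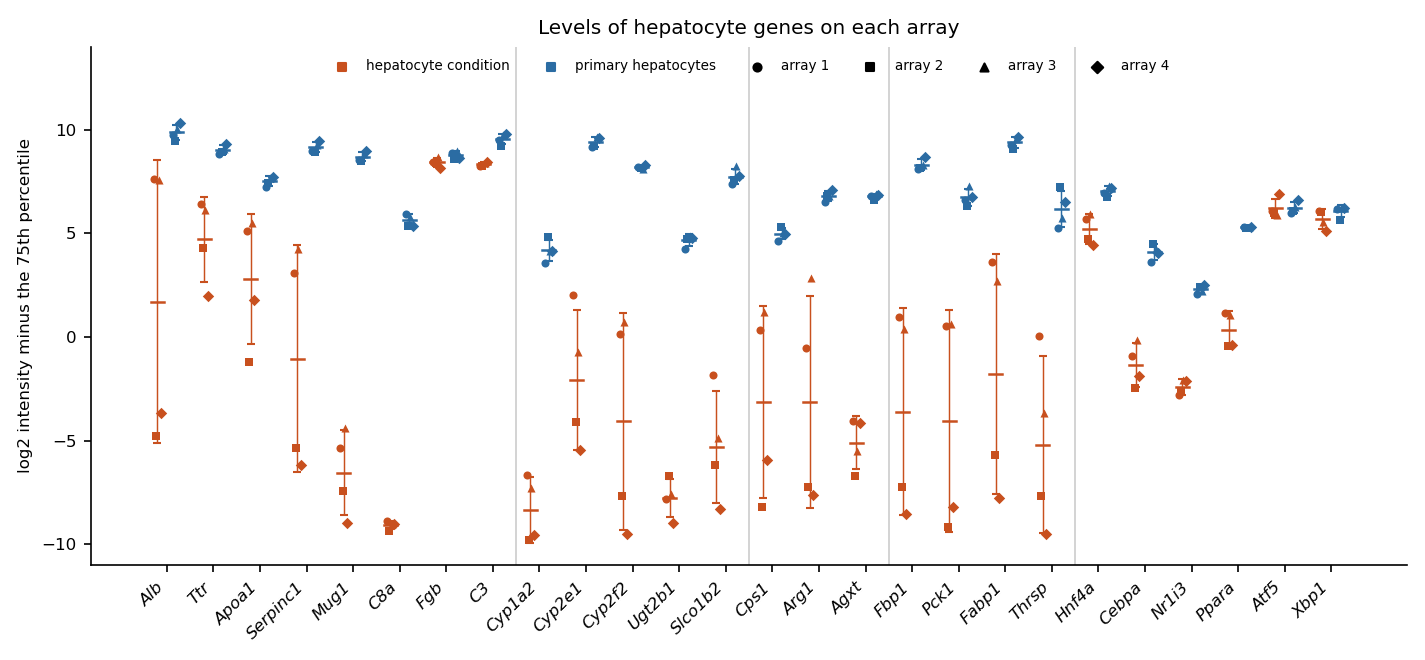
Levels of 26 hepatocyte genes are shown on each array, with condition arrays in orange on the left and primary arrays in blue on the right of each gene, and bars for mean and SD. From left to right the genes are secreted proteins, drug and bile acid genes, urea and amino acid genes, glucose and fat genes, and transcription factors. Fgb, C3, Atf5 and Xbp1 lie close together between the groups.

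Liver transcription factors had a median difference closer to that of all genes than any of the 14 lists above. Of 26, 14 fell, 5 rose and 7 did not pass (median -0.81), beside 33.7% lower and 26.0% higher among all genes. Acute-phase proteins were closer when 1 array was left out. The medians were -0.88 and, for acute-phase proteins, -0.73 without condition array 4, and -1.09 and -0.84 without primary array 1. Hnf4a, the nuclear receptor at the centre of hepatocyte identity, was 5.72, 4.73, 5.95 and 4.46 in the condition against 6.96, 6.76, 7.30 and 7.20 in primary hepatocytes, and fell by 1.83 ± 0.45 (adjusted p = 0.0029). Cebpa, which drives genes of mature metabolism, was -0.91, -2.48, -0.12 and -1.89 in the condition and 3.61, 4.47, 4.26 and 4.08 in primary hepatocytes, a fall of 5.45 ± 0.51. Creb3l3, a membrane-bound factor of fasting and iron genes, and Nr5a2, which controls bile acid synthesis, fell (-5.57 ± 0.94 and -5.07 ± 0.99). Tbx3, a T-box factor of hepatoblasts and pericentral cells, fell by 8.32 ± 2.33, with condition levels of -8.98, -0.23, -6.30 and -9.04. Among those that rose were Foxa2 (1.2 ± 0.20), a pioneer factor of liver and ducts, Nr2f1 (4.84 ± 0.41), Cebpd (3.99 ± 0.32), a C/EBP factor of the acute-phase response, and Gata6 (2.75 ± 0.27). Atf5, a stress factor abundant in liver, differed by -0.03 ± 0.49, Xbp1, of secretory cells, by -0.38 ± 0.22, and Onecut2, a factor of hepatoblasts and ducts, by 0.27 ± 0.57.

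Receptors that sense metabolites and drugs fell in 15 of 24 cases, and 2 rose (median -1.88), beside 33.7% lower and 26.0% higher among all genes. Nr0b2, the repressor SHP that bile acids induce, fell by 6.73 ± 0.44, and Nr1i2 and Nr1i3, the drug receptors PXR and CAR, by 5.20 ± 1.51 and 4.72 ± 0.37. Nr1i3 was -2.81, -2.64, -2.06 and -2.14 in the condition and 2.09, 2.42, 2.21 and 2.53 in primary hepatocytes. Ppara, the receptor that turns on fatty acid oxidation, was 1.17, -0.42, 1.06 and -0.36 in the condition against 5.33, 5.29, 5.33 and 5.32, and fell by 4.95 ± 0.56. Ppard, its widely expressed relative, rose by 1.32 ± 0.34. Esrra rose by 0.45 ± 0.17, a call lost in the fit of 8 arrays (adjusted p = 0.0616) and without condition array 1, 2 or 3 or primary array 2 or 3 (0.0572 to 0.0819), and with slide as a fixed block (0.34, 0.102). Nr1h2, the ubiquitous form of LXR, had levels of 3.03 to 3.44 in the condition and 3.05 to 3.33 in primary hepatocytes.

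Genes of both zones of the liver lobule were lower. Of 27 pericentral genes 24 fell and 1 rose (median -5.31), and of 28 periportal genes 25 fell and 2 rose (median -5.99). Ces1d, a pericentral carboxylesterase with close paralogs, fell by 13.95 ± 0.55, while Axin2 and Ahr, the Wnt feedback gene and the dioxin receptor, overlapped (-0.18 ± 0.72 and 0.24 ± 0.26). Among periportal genes Igfbp2, a growth factor carrier, fell by 11.01 ± 0.66, and both probes of the gene were lower. The 2 that rose were Sox9 and Cdh1, the epithelial cadherin, by 4.01 ± 0.55 and 2.45 ± 0.26.

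The deepest falls were those of major urinary proteins and other genes that depend on sex and growth hormone pulses in mice. Of 21, 18 fell and 3 did not pass (median -12.47, or -10.75 at the bounds). Mup3, Mup5 and Mup1, pheromone carriers excreted in urine, fell (-16.53 ± 0.51, -16.05 ± 0.42 and -15.63 ± 0.62). Mup1 was -5.94, -5.52, -6.94 and -6.08 in the condition against 9.39, 9.08, 9.68 and 9.90 in primary hepatocytes, and it was the largest decrease among genes above background on all 8 arrays. These genes are near-identical copies on chromosome 4, and single members cannot be told apart by their probes. Hsd3b5, a steroid dehydrogenase of male liver, was not above background in the condition and at least 18370-fold lower. In the growth hormone and IGF list 8 genes rose and 7 of 21 fell, beside 26.0% and 33.7% of all genes. The median of 0.10 had no stable sign, being 0.56 without primary array 3, -0.018 without primary array 1, and -0.24, -0.41 and 1.27 within slides 1, 3 and 4. Igfals and Ghr, the stabiliser of circulating IGF1 and the growth hormone receptor, fell (-8.62 ± 0.79 and -4.33 ± 0.65). Igf1r, the receptor of IGF1, was 1.78, 2.65, 2.11 and 2.92 in the condition against -7.13, -7.53, -4.0 and -6.70 in primary hepatocytes, and rose by 8.71 ± 0.58. On primary arrays 1, 2 and 4 it was not well above background, and its difference was as small as 5.44 under alternative processing. Igf2bp1, a fetal RNA-binding protein, was at least 61.5-fold higher, and Igfbp7 and Igfbp3 rose by 6.44 ± 0.68 and 5.96 ± 0.78. Igfbp1, which glucagon and fasting induce in liver, was 5.69, -7.01, 7.01 and -6.88 in the condition against 3.33, 4.69, 4.36 and 2.93 in primary hepatocytes, so that arrays 1 and 3 lay above and arrays 2 and 4 below all primary arrays (-4.13 ± 3.11).

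Ductal genes were more often higher than lower in the condition, and 7 of 32 were not above background on any array of primary hepatocytes. Among 32 biliary markers there were 17 that rose and 6 that fell (median 2.08, or 1.70 at the bounds and 0.75 with normexp background correction). Cd24a, a surface glycoprotein of ductal and progenitor cells, was 4.70, 4.53, 5.05 and 4.88 in the condition and not above background in primary hepatocytes, at least 1950-fold higher (adjusted p = 1.4e-14). Tspan8, a tetraspanin of epithelia, was at least 1037-fold higher, and Bicc1, an RNA-binding protein whose loss gives cystic ducts, rose by 11.85 ± 0.20. Spp1, osteopontin, was 6.21, 4.59, 6.14 and 5.11 in the condition against -4.44, -3.65, -4.64 and -5.77 in primary hepatocytes. Sox9 was 1.80, 0.77, 0.98 and 1.19 in the condition and -2.04, -2.46, -3.75 and -3.04 in primary hepatocytes. Epcam, an adhesion protein of ducts, did not pass and was not above background in primary hepatocytes. Other ductal genes went down: Cldn3, a claudin, fell by 5.19 ± 0.75, the water channel Aqp1 by 4.22 ± 0.86 and the bicarbonate exchanger Slc4a2 by 2.62 ± 0.20. Cftr, the chloride channel, did not pass (-2.89 ± 1.35).

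Keratins went both ways: 5 of 13 rose and 2 fell, beside 26.0% and 33.7% of all genes. The keratin median was -0.14, and it was 0.05 with median scaling, 0.08 with quantile normalization and 0.68 with the mean of all probes of a gene. Krt7 was 3.75, 4.48, 3.27 and 4.12 in the condition and not above background in primary hepatocytes, at least 1055-fold higher, and Krt20, of intestinal and bladder epithelium, rose by 11.55 ± 0.67. Krt8, which hepatocytes and ducts share, was 5.75, 5.64, 5.37 and 5.33 in the condition against 4.18, 4.13, 3.99 and 4.33 in primary hepatocytes, a rise of 1.37 ± 0.18. Krt23, which is also in the list of biliary markers, fell by 7.83 ± 1.27, against the direction of Krt7. Krt5, Krt14 and Krt10, of stratified epithelia, overlapped.

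S100 proteins and annexins, calcium-binding proteins of membranes and the cell cortex, rose in 17 of 27 cases and fell in 2 (median 1.99, or 1.80 at the bounds). Anxa2 was 7.40, 7.59, 7.44 and 7.57 in the condition against -2.35, -1.34, -1.72 and -2.47 in primary hepatocytes. Anxa8, Anxa3, Anxa1 and S100a11 rose by 11.97 ± 0.71, 10.28 ± 0.26, 9.28 ± 0.37 and 9.20 ± 0.20. Anxa6, Anxa11 and S100a13 overlapped between the groups, and S100a1 and S100a5 fell (-0.90 ± 0.30 and -1.91 ± 0.47), the first of them not without condition array 3 (adjusted p = 0.0507), with median scaling (0.0621) or with quantile normalization (0.0516). Junction genes were mixed, with 9 of 30 higher and 13 lower, beside 26.0% and 33.7% of all genes. The junction median was -0.41, beside -0.33 for all genes, and 0.59 within slide 1. Gjb2, a gap junction protein of hepatocytes, fell by 8.33 ± 1.44, while Gja1, the connexin of most other cells, was at least 16.1-fold higher. The scaffold gene Tjp1 rose by 2.70 ± 0.19, and Cldn1 and Dsc2, of tight junctions and desmosomes, fell (-5.61 ± 1.17 and -6.14 ± 0.81).

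**Figure D5:**
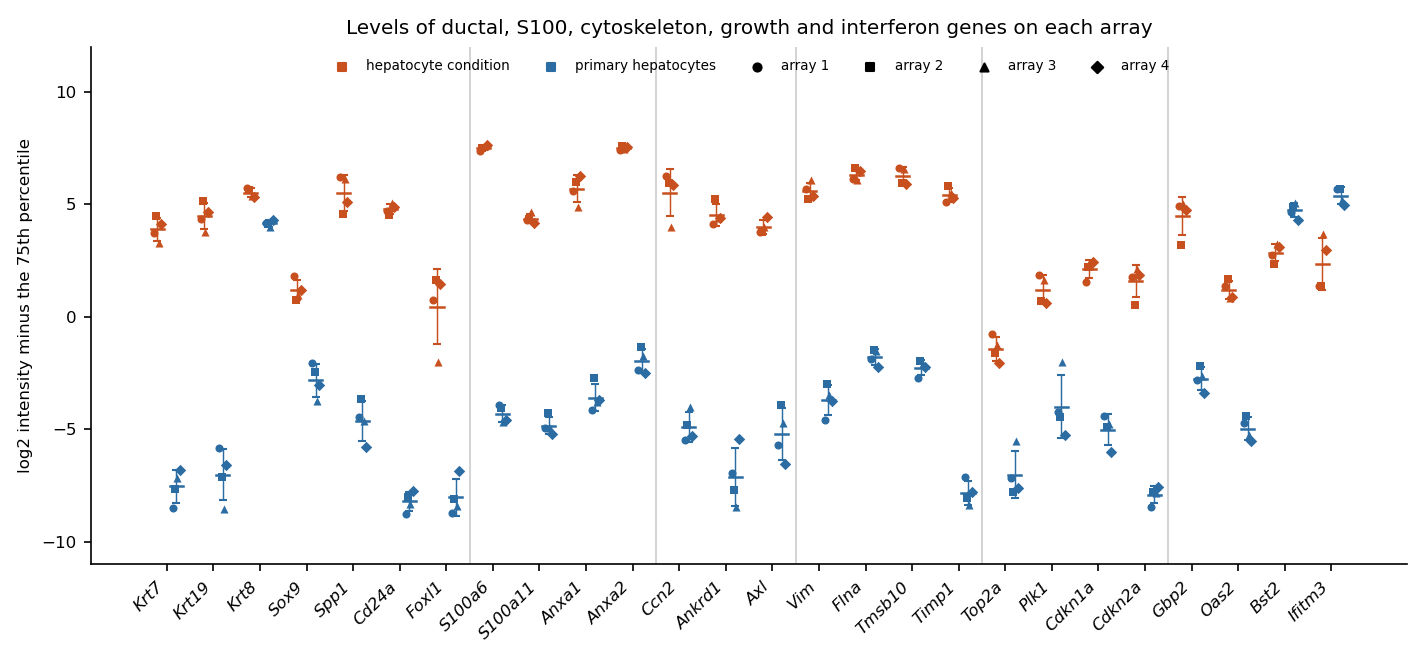
Levels of 26 genes are shown on each array, with condition arrays in orange on the left and primary arrays in blue on the right of each gene, and bars for mean and SD. From left to right the genes are ductal and progenitor, S100 and annexin, YAP target, cytoskeleton and matrix, growth, and interferon genes. Bst2 and Ifitm3 are the only 2 of them that lie lower in the condition.

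Progenitor and fetal liver genes rose in 16 of 27 cases and fell in 4 (median 2.96). Bex1, a small adaptor of neural and regenerating tissue, was at least 737-fold higher, Ncam1, a neural adhesion protein of ductal reactions, rose by 9.86 ± 0.47, and Igf2 and Prom1 rose by 2.96 ± 0.68 and 5.46 ± 1.56. With normexp background correction both calls were lost, with Igf2 higher by 0.50 (adjusted p = 0.139) and Prom1 by 2.89 (0.051). The other 2 probes of Ncam1 were higher by 1.22 and 5.79. Afp, the fetal counterpart of albumin, was -1.5, -0.61, 0.13 and -7.12 in the condition against -2.42, -2.54, -2.71 and -2.91 in primary hepatocytes, and did not pass. H19, a fetal non-coding RNA, was 6.78, -5.40, 6.04 and -5.64 in the condition and -5.98 to -5.03 in primary hepatocytes, so that it was high on condition arrays 1 and 3 alone. Among the genes that fell were Lgr5 and Kit (-4.59 ± 0.62 and -3.93 ± 0.69).

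Cell cycle genes were higher in the condition in 33 of 40 cases and lower in none (median 3.02). Top2a, the topoisomerase that untangles DNA before mitosis, was -0.76, -1.60, -1.24 and -2.04 in the condition against -7.17, -7.79, -5.50 and -7.60 in primary hepatocytes, and rose by 5.61 ± 0.44. On primary arrays 1, 2 and 4 it was not well above background, and its difference was as small as 1.88 under alternative processing. The mitotic genes Tpx2, Plk1 and Cenpe rose by 5.29 ± 0.58, 5.19 ± 0.54 and 5.03 ± 0.46, each with primary array 3 above the other primary arrays. The second probe of Tpx2 differed by -0.67, and with normexp background correction Tpx2 rose by 1.86. CDK inhibitors and D-type cyclins, counted in a single list, rose in 11 of 14 cases and fell in none (median 1.76). Cdkn2a, which encodes p16 and ARF, was 1.80, 0.54, 2.12 and 1.88 in the condition and not above background in primary hepatocytes, at least 211-fold higher. Cdkn1a, the p21 gene, was 1.58, 2.23, 2.27 and 2.46 in the condition against -4.38, -4.89, -4.74 and -6.0, and rose by 7.14 ± 0.33. Ccnd2 and Cdkn2b rose by 6.22 ± 0.54 and 5.80 ± 0.20.

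Promoters of the cell cycle list held the CCAAT letters that NF-Y binds in 25 of 33 cases (75.8%), against 37.9% of all promoters. The share was not particular to this list. In other lists searched it ran from 13.6% (S100 proteins and annexins) to 90.9% (plasma carriers, 10 of 11 promoters). Among hepatocyte genes that passed as lower it was 49.6%. The Top2a promoter is printed because it holds 6 copies (chr11:99024140-99024439, minus strand), with the letters of either strand in capitals.
Top2a promoter: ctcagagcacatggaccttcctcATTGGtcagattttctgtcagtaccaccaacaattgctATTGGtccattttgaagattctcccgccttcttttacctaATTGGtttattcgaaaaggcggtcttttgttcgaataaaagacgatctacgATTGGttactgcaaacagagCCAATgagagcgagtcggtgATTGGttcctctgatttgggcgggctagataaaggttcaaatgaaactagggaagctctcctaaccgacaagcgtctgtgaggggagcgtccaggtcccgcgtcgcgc

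Targets of YAP and TEAD, the mechanically regulated pair that drives growth of liver and ducts, rose in 18 of 21 cases and fell in none (median 2.64). Ankrd1, an ankyrin repeat protein, was 4.13, 5.23, 4.38 and 4.41 in the condition against -6.95, -7.68, -8.45 and -5.41 in primary hepatocytes, and rose by 11.66 ± 0.62. On primary arrays 1, 2 and 3 it was not well above background, and with normexp background correction it rose by 7.84. Ccn2, connective tissue growth factor, was 6.28, 5.97, 4.0 and 5.85 in the condition and -5.45, -4.79, -4.01 and -5.30 in primary hepatocytes (10.41 ± 0.49). The receptor kinase Axl rose by 9.21 ± 0.82, and Tgfb2 was at least 35.2-fold higher. Nt5e and Dlc1 overlapped between the groups. The TEAD letters CATTCC were in 11 of 19 promoters of this list (57.9%), against 14.6% of all. The Ankrd1 promoter is printed for its 2 copies, at -210 to -205 and at -123 to -118 (chr19:36119795-36120094, minus strand, capitals mark the letters).
Ankrd1 promoter: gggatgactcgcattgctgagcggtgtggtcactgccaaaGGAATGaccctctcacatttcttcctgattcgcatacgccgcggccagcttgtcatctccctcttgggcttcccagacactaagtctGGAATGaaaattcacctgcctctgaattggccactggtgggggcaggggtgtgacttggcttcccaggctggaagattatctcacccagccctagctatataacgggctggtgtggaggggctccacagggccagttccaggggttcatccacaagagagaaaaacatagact

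Cytoskeleton and matrix genes were higher alongside. Of 33 actin cytoskeleton and mesenchymal transition genes 25 rose and none fell (median 2.19), with Vim, the intermediate filament vimentin, at 5.69, 5.25, 6.07 and 5.38 in the condition against -4.58, -2.96, -3.47 and -3.72 in primary hepatocytes. Tmsb10, Flna and Ezr, which bind or anchor actin, rose by 8.52 ± 0.26, 8.10 ± 0.30 and 8.02 ± 0.26, while Tagln, Cnn3 and Cdh2 overlapped. Of 38 matrix and integrin genes 24 rose and 6 fell (median 3.19, or 2.65 at the bounds and 1.1 with normexp background correction). Timp1, an inhibitor of matrix proteases, was 5.09, 5.81, 5.50 and 5.29 in the condition and not above background in primary hepatocytes, at least 3023-fold higher. Timp2 and the laminin chain Lamb1 rose by 9.74 ± 0.41 and 8.56 ± 0.50. Col18a1, the basement membrane collagen that hepatocytes make, fell by 2.40 ± 0.24.

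Interferon-stimulated genes were divided. Of 31, 14 rose and 7 fell, beside 26.0% and 33.7% of all genes, and 10 did not pass (median 0.85). Gbp2, a GTPase that attacks vacuoles of pathogens, was 4.94, 3.22, 5.02 and 4.74 in the condition against -2.79, -2.17, -2.64 and -3.38 in primary hepatocytes, and rose by 7.22 ± 0.42. Oas2, Oasl2 and Oas3, sensors of double-stranded RNA and their relatives, rose by 6.16 ± 0.76, 6.11 ± 0.62 and 5.38 ± 0.46. Ifitm3, which blocks viral entry, was 1.37, 1.38, 3.70 and 2.96 in the condition and 5.69, 5.71, 5.19 and 4.98 in primary hepatocytes, and fell by 3.04 ± 0.50. Bst2 fell by 1.87 ± 0.29, and the transcription factors of the response, Stat2 and Irf9, overlapped (0.53 ± 0.31 and -0.15 ± 0.21). The interferon response letters (GAAA, any 2 bases, GAAA) were in 15 of 23 promoters (65.2%), against 3.49% of all, and both directions occurred with them. Gbp2 (chr3:142620413-142620712, plus strand, -59 to -50) and Ifitm3 (chr7:141010695-141010994, minus strand, 2 copies just after the start) are printed to show this, with the letters in capitals.
Gbp2 promoter: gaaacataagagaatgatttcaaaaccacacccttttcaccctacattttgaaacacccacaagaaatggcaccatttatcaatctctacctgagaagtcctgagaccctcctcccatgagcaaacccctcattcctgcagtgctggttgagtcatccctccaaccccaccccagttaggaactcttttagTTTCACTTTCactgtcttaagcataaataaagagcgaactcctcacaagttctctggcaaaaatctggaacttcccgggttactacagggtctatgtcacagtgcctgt
Ifitm3 promoter: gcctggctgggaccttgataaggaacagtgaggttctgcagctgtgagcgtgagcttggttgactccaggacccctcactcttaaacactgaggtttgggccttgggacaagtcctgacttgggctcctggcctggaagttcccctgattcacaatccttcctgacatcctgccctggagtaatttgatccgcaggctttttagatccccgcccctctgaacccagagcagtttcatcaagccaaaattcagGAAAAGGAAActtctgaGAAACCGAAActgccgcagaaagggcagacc

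Antigen presentation genes fell in 10 of 17 cases and rose in none (median -1.34), beside 33.7% lower and 26.0% higher among all genes. B2m, the light chain of class I molecules, was 6.21, 5.52, 5.87 and 5.62 in the condition against 7.88, 7.93, 7.95 and 8.11 in primary hepatocytes, and fell by 2.16 ± 0.20. H2-K1, a class I heavy chain with close relatives, fell by 2.33 ± 0.44, and the class II chain H2-Aa by 3.11 ± 0.74. Psmb10, of the immunoproteasome, was 4.73, 4.73, 4.92 and 4.72 in the condition and 4.71, 4.50, 4.67 and 4.66 in primary hepatocytes.

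Targets of NRF2, the sensor of oxidants, went both ways, with 7 of 17 higher and 7 lower, beside 26.0% and 33.7% of all genes. The median of the list was -0.34, beside -0.33 for all genes, and it was 0.08 with quantile normalization. Abcc4, an efflux pump, and Cbr3 rose by 6.79 ± 0.34 and 6.61 ± 0.63, whereas Nqo1, a quinone reductase often used as a sign of NRF2 activity, fell by 7.56 ± 0.78. Taldo1, Tkt and Osgin1 did not pass. Iron and heme genes fell in 10 of 18 cases and rose in 3 (median -1.79), beside 33.7% lower and 26.0% higher among all genes. Hamp2 and Hjv, a second hepcidin and its inducer hemojuvelin, fell (-7.37 ± 0.95 and -8.20 ± 0.69), Hmox1, heme oxygenase, rose by 2.34 ± 0.40, and Cp, the ferroxidase ceruloplasmin, was lower by 0.62 ± 0.34 without passing. The mean of all Cp probes was higher by 2.64, so the direction for this gene depends on the probe. The second probe of Hmox1 likewise differed by -0.54, and the mean of its probes was 0.90.

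Clock genes fell in 10 of 17 cases and rose in 4 (median -1.73), beside 33.7% lower and 26.0% higher among all genes. Hlf, Dbp and Nr1d1, output factors and a repressor of the clock, fell (-8.45 ± 0.32, -4.96 ± 0.36 and -3.71 ± 0.31), and Arntl, the BMAL1 gene that Nr1d1 represses, rose by 2.92 ± 0.28. Dbp was 0.31, 1.81, 0.42 and 0.57 in the condition against 5.35, 5.86, 5.50 and 6.22 in primary hepatocytes. Clock itself overlapped. Time of day at collection is not given in the labels used here. Immediate-early and heat shock genes rose in 13 of 24 cases and fell in none (median 1.31), and 21 were higher in the authors' deposited table. Ier3 rose by 8.90 ± 0.45 and Fosl2, of the AP-1 family, by 4.45 ± 0.27 (0.89 by its other probe), and Fosl1 and Egr2 were at least 34.5-fold and 21.1-fold higher. Under alternative processing both fell short of these bounds. The log2 difference of Egr2 was 1.97 with normexp background correction, and that of Fosl1 was as small as 2.43. The chaperones Hspa5 and Hspa8 did not pass (-0.39 ± 0.19 and -0.39 ± 0.17).

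Primary hepatocytes carried more of the markers of other liver cells. Of 18 endothelial markers 17 were lower in the condition (median -3.36), and the mean level of the list was -5.71 to -5.03 on condition arrays and -2.09 to -1.31 on primary arrays. Stab2, of sinusoidal endothelium, was -7.39, -7.38, -5.77 and -2.90 in the condition against 0.51, 1.14, 0.81 and 0.48 in primary hepatocytes. Of 23 leukocyte and Kupffer cell markers 20 were lower, 14 of them above background on all primary arrays, and 2 higher (median -1.99), with list means of -4.96 to -4.29 and -2.90 to -2.01. The Kupffer cell lectin Clec4f was at least 35.3-fold lower in the condition, where it was not above background, as were C1qa and C1qc. Cd68 was counted as lower although it was not above background on any primary array. The 2 that were higher were Cd14 (7.55 ± 0.30) and Ptprc, which encodes the CD45 phosphatase (1.37 ± 0.53). The call of Ptprc was lost without condition array 1 or 3 or primary array 3 or 4 (adjusted p of 0.0933 to 0.108), and with normexp background correction the difference was 0.03 (0.929). Of 16 stellate cell markers 7 were lower, beside 33.7% of all genes, 5 of them above background on all primary arrays, and none higher (list means of -6.57 to -5.64 and -5.40 to -4.28), with Lrat lower by 4.42 ± 0.66 and Acta2 not passing. Red blood cell genes were lower in 4 of 5 cases (list means of -7.72 to -6.53 and -2.62 to -2.18), Alas2 at least 2934-fold and Hba-a1 by 4.51 ± 0.50. In these bulk samples fewer cells of a type and less RNA per cell cannot be told apart, and the part of such cells in the differences of other genes was not tested.

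Of 26 respiratory chain genes 25 fell (median -1.23), with Cyc1 and Sdhb, of complexes III and II, lower by 2.26 ± 0.15 and 1.95 ± 0.27. Cyc1 was 3.76, 3.71, 3.77 and 3.63 in the condition against 5.80, 5.81, 6.19 and 6.11 in primary hepatocytes. Of 26 ribosomal protein genes 20 rose and none fell (median 0.67), and 14 of them had an interval within 2-fold. Rpl18 and Rpl5 rose by 1.30 ± 0.14 and 1.27 ± 0.17, and probes of these genes may also read processed pseudogenes. Tpi1, of glycolysis, differed by 0.01 ± 0.17. Ldha fell by 0.53 ± 0.15, and was higher by 0.16 with quantile normalization. Gapdh fell by 0.44 ± 0.12 by its brightest probe, while the mean of its 7 probes was higher by 0.19.

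By size alone, the increases among genes above background on all 8 arrays were led by S100a6, Cpe (11.25 ± 0.30), a prohormone-processing enzyme, Fbln2 (11.06 ± 0.60), a matrix protein, Ccn2 and Parm1 (9.81 ± 0.32). Cpe was 6.64, 5.60, 5.63 and 6.03 in the condition against -5.24, -5.68, -4.99 and -5.17 in primary hepatocytes. Next came Timp2, Anxa2, Aebp1, Anxa1, Vim, Ahnak and S100a11, between 9.20 and 9.74. The place of Ahnak rests on its brightest probe, since the others differed by -0.25, 1.65 and 7.36. Among genes not above background in primary hepatocytes the highest bounds were those of Msln, mesothelin, at least 8224-fold, Timp1, Cd24a, Reg3b, at least 1694-fold, Pmaip1, at least 1203-fold, and Krt7. Reg3b, a secreted lectin of injured epithelia, was 7.41, 5.75, 4.77 and 0.43 in the condition.

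The decreases among genes above background on all 8 arrays were led by 8 members of the Mup family, between -15.63 and -13.54, of which 2 are annotated as pseudogenes. They were followed by Cdo1, cysteine dioxygenase (-12.75 ± 0.39), Mtarc1, a mitochondrial amidoxime reductase (-12.67 ± 0.91), Pax2 (-12.57 ± 0.42) and Agxt. Pax2 is a factor of kidney development, and only 1 of its 3 probes behaved in this way. That probe was -5.92 in the condition and 6.64 in primary hepatocytes, and the other two differed by -0.22 and -0.19. Genes not above background in the condition with the deepest bounds were Car3, carbonic anhydrase 3, at least 56750-fold lower, Hsd3b5, Mup6, C8a, Plbd1, at least 6048-fold, and Sucnr1, the succinate receptor, at least 3350-fold. Car3 was 8.15, 8.43, 8.24 and 8.59 in primary hepatocytes.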

How the data were processed

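RNA of 17 mouse samples was read on single-colour Agilent arrays on 5 slides. The authors deposited 1 scanner file per array with intensity values already background-subtracted and spatially detrended by Feature Extraction (10.5.1.1 per the file headers, 9.53 per the submitters' processing notes). Their deposited table gives 2 scores, a signed fold, primary over condition, and a false discovery rate, with its method not given in the sources used here. Intensities were taken as log2, minus the log2 75th percentile of each array, after dropping control spots and outlier flags. Probes well above background on at least 2 arrays were kept (32305 of 39429), and the brightest probe stood for a gene. Symbols come from RefSeq accessions where these matched (26438 probes). limma 3.58.1 (R 4.3.3) was fitted to all 5 groups, with Benjamini-Hochberg adjustment over 25973 genes, and was tested on simulated data. Where a whole group was below background, a lower bound of the fold is given. The bounds hold for the intensities of the main fit only. With normexp background correction some log2 differences were smaller than their bounds, such as 1.97 for Egr2 and -2.54 for Clec4f. The number of arrays limits the precision. Same-numbered arrays did not deviate together (r of -0.095, 0.0767, -0.132 and -0.0162). Named genes are the markers, the 12 largest differences in each direction above background on all arrays without overlap, the 6 largest bounds in each direction, up to 4 passed in each direction and 3 not passed per list, and both members of the isozyme pairs given. Members and lists were chosen with earlier results of these data known. Alternatives were other scalings, background correction, filters, probe rules, blocks and left-out arrays. Some genes and isozyme pairs, and 1 of the motifs searched, are not reported here.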

Additional observations from a re-analysis of the deposited data

Results flagged for a closer look

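In 18 of 522 groups of 4 arrays (261 named genes in both groups) 1 array lay far from the other 3, beyond Dixon's 95% critical value. Chance gives such a gap in about 1 in 20 groups, which is more than were seen. In the hepatocyte condition these were, by level on that array and the range of the others, Cdo1 on array 3 (-5.82 against -6.92 to -6.75), Esrra on array 4 (3.50 against 4.04 to 4.08), Gbp2 on array 2 (3.22 against 4.74 to 5.02), Nqo1 on array 3 (-6.30 against -9.52 to -9.17), Pfkfb3 on array 2 (2.14 against 1.23 to 1.26), Psmb10 on array 3 (4.92 against 4.72 to 4.73) and Sucnr1 on array 1 (-6.86 against -9.38 to -9.08). In primary hepatocytes these were, by level on that array and the range of the others, Afm on array 1 (5.99 against 6.53 to 6.64), Cdh1 on array 4 (0.21 against 0.94 to 1.04), Cyp4f15 on array 2 (5.02 against 4.54 to 4.61), F13b on array 1 (3.46 against 3.91 to 3.98), Fbln2 on array 1 (-3.53 against -5.45 to -5.42), Igfbp7 on array 2 (-4.95 against -5.44 to -5.38), Lrg1 on array 1 (7.64 against 6.45 to 6.63), Nr1h2 on array 4 (3.33 against 3.05 to 3.10), Onecut2 on array 3 (4.39 against 3.88 to 3.96), Ppara on array 2 (5.29 against 5.32 to 5.33) and Xbp1 on array 2 (5.67 against 6.20 to 6.25).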

How the results depend on the processing

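Counts of genes that passed stayed within 1.5 times under most alternatives, but 14238 genes were lower with normexp background correction and 13347 with no filter on dim probes, where 11493 were at least 2-fold lower. Leaving out 1 array gave 6325 to 6457 genes higher and 7675 to 8924 lower, and 4590 to 4752 and 6269 to 7575 at least 2-fold. The replicate block gave 6661 higher and 8509 lower (4754 and 6994 at least 2-fold), and since the numbers pair no arrays it is given only here. Slide as a random block gave 6874 and 9134, and as a fixed block 6561 and 10053. The share of calls that were higher was 43.5%, against 52.0% with quantile normalization and 27.8% with normexp. Differences that changed direction included those of Clu (0.46 with quantile normalization, 0.51 in the authors' deposited table), Gapdh (0.50 with quantile normalization, 0.19 with the mean of probes, 0.56 in the authors' deposited table), Ldha (0.16 and, in the authors' deposited table, 0.25), Cp and Krt10 (2.64 and 0.86 with the mean of probes), Pnpla3 (-0.66 with normexp) and Esrra (-0.088 within slide 3). In the authors' deposited table Atf5, Fgb and Hspa8 were higher, by 0.47, 0.70 and 0.36. Of genes that did not pass, C3 was 0.15 with quantile normalization, Epcam -0.47 with normexp, H19 -0.37 and -0.41 within slides 1 and 3, and Igfbp1 and Apoc2 3.68 and 0.39 within slide 4. With normexp the list medians of S100 proteins, cell cycle, endothelial and leukocyte genes were 0.98, 1.87, -1.74 and -1.30. With quantile normalization those of respiratory chain and ribosomal genes were -0.75 and 1.14, and 13 stellate markers were lower with normexp. The cause was not tested. Low levels are limited by signal over background, more so in primary hepatocytes.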
